A study of Mus musculus with 2 samples.

Results

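Among DNase-seq peaks at protein-coding promoters of mouse frontal cortex, those at start sites poor in G and C were a minority. A GC-poor promoter peak is defined here as a called peak whose midpoint lay within 500 bp of a transcription start site (TSS) of a protein-coding transcript, where the sequence of the 500 bp on each side of the nearest such TSS had a GC content below 50%. Replicate 1 held 1844 of them among 20420 promoter peaks and 93641 peaks in all. Replicate 2 held 1463 among 18208 promoter peaks and 66196 peaks in all. They made up 9.03% of the promoter peaks in replicate 1 (Wilson 95% interval 8.64 to 9.43%) and 8.04% in replicate 2 (7.65 to 8.44%). The remaining promoter peaks, 18576 and 16745, lay at TSSs with a GC content of 50% or more and are called GC-rich. The rule used sequence and position only, so signal, recurrence and footprints are measures it did not choose.

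The tissue came from female B6CASTF1/J mice, the F1 cross of C57BL/6J and CAST/EiJ, at 14 days of age, with no treatment. The 2 libraries are biological replicates of 1 group, with separate biosamples and a shared donor label. Whether a library pools several animals is unstated in the labels, and the difference between the libraries may in part be technical. The design has 1 group and so allows no test between groups. Values are therefore given per library, and intervals on shares cover counting error only.

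Most mammalian genes that are active in many tissues start in CpG islands, stretches rich in GC and in CpG dinucleotides that tend to stay free of nucleosomes and of DNA methylation. Promoters outside such islands are known for more tissue-restricted genes and more often carry a TATA box, which positions the transcription machinery a short way upstream of the start. DNase I cuts DNA that is not wrapped around nucleosomes, so a peak of cuts marks an accessible site. A footprint is a short stretch inside such a site that is cut less than its surroundings, as happens where a protein covers the DNA.

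The sequences of 7 of the 8 strongest sites show that GC-poor by the rule did not mean free of CpG. Each is the part of the replicate 1 peak that lies upstream of the nearest TSS, outside the exons of the GENCODE annotation and at most 160 bases long, read 5′ to 3′ on the strand of the gene from the GRCm38 (mm10) reference. Capitals mark bases inside replicate 1 footprints. Flad1, which encodes FAD synthase, is shown on the minus strand at chr3:89411871-89412030. Bahcc1, a chromatin reader gene, is on the plus strand at chr11:120232741-120232900. Bpgm, which encodes bisphosphoglycerate mutase, is on the plus strand at chr6:34476141-34476206. Chd2, a chromatin remodeller gene, is on the minus strand at chr7:73537761-73537920. Hist1h4i, a histone H4 gene, is on the minus strand at chr13:22041363-22041480. Rps9, a gene of the small ribosomal subunit, is on the plus strand at chr7:3703881-3703992. Ndufs7, which encodes a subunit of respiratory complex I, is on the plus strand at chr10:80248961-80249120.
Flad1: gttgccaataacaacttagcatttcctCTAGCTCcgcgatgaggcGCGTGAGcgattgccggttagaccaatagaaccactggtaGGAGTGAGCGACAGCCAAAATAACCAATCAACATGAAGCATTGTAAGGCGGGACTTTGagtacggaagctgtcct
Bahcc1: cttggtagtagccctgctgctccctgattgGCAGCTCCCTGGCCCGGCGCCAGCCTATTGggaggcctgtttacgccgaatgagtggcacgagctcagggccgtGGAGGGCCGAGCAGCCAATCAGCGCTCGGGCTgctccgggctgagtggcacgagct
Bpgm: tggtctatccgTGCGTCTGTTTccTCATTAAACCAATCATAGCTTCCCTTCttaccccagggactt
Chd2: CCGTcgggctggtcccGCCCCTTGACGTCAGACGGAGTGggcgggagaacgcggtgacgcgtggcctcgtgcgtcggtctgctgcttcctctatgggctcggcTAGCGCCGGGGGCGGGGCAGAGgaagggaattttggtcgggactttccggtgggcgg
Hist1h4i: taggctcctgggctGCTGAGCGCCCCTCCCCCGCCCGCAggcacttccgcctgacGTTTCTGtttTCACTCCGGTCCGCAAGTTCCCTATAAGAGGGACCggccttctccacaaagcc
Rps9: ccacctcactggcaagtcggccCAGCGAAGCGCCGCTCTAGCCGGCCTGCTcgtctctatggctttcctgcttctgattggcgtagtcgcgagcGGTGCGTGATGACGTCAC
Ndufs7: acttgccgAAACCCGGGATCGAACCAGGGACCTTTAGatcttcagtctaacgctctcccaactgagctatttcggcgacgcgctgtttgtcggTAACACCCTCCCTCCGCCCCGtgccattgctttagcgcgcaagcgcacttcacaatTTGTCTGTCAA

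Short consensus sequences recurred in these stretches. The CCAAT box, the letters CCAAT on either strand and the site of the factor NF-Y, occurred 3 times in the Flad1 stretch, 3 times in that of Bahcc1 and 1 time in that of Bpgm. In each of the 3, 1 of the matches lay wholly in footprint bases. The Rps9 stretch held 1 CCAAT match, which did not. The cAMP response element (CRE), TGACGTCA, the site of CREB and ATF factors, lay wholly in footprint bases in the Chd2 and Rps9 stretches. GGGCGG on either strand, the site of SP and KLF factors, lay wholly in footprint bases for 1 of 4 matches at Chd2. The 1 match each at Hist1h4i and Ndufs7 did too. The Ndufs7 peak also covers a tRNA gene on the opposite strand, n-TFgaa3, at chr10:80248964-80249036. Such overlaps were rare, with 2 shared GC-poor sites covering a tRNA gene among 1285. A match is a description and not a measured binding site.

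Promoters of 2 neuronal genes, with weaker peaks than these, are shown in the same way. They were chosen after their values were seen, from sites with overlapping peaks in both libraries. Snap25, which encodes a protein of the vesicle fusion complex, is on the plus strand at chr2:136713321-136713452. Scn2a, which encodes a voltage-gated sodium channel, is on the plus strand at chr2:65668481-65668640.
Snap25: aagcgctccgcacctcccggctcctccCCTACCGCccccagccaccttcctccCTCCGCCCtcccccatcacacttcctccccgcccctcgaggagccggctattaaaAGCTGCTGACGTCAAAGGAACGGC
Scn2a: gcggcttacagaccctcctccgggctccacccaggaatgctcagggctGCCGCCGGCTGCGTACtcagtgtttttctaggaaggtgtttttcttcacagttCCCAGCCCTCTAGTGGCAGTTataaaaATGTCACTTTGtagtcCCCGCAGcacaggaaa
The Snap25 stretch held a CRE wholly within footprint bases close to the TSS. The stretch of Scn2a held TATAAA 1 time, not wholly within a footprint.

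Only a small share of GC-poor start sites carried a peak. Of 54365 distinct protein-coding TSS positions, 17602 (32.4%) were GC-poor. A TSS was counted as occupied when any peak midpoint lay within 500 bp. By that measure 15.3% of GC-poor TSSs were occupied in replicate 1 and 13.0% in replicate 2 (mean 14.2 ± 1.63%, SD, n = 2). The share occupied in both was 12.2%, or 2154 TSSs, against 50.9% over all TSSs. Of GC-rich TSSs, 69.5% were occupied in both libraries.

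Occupancy was higher in each successive GC class. Peaks in both libraries marked 0.763% of TSSs with GC under 35%, 2.35% from 35 to 40%, 7.92% from 40 to 45% and 22.7% from 45 to 50%. The share was 46.5% from 50 to 55% and 85.3% at 65% or more. The threshold of 50% cut through a gradient. The members nearest to it, taking the strongest where GC was tied, show where it fell. Hist1h4c, Fundc1 and Emc4 lay just inside at 49.95% GC, with signals of 6.19, 3.71 and 3.62 in replicate 1. Cstf2t, Nuf2 and Smarcal1 lay just outside at 50.05%, with 7.03, 5.08 and 4.60.

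**Figure D1:**
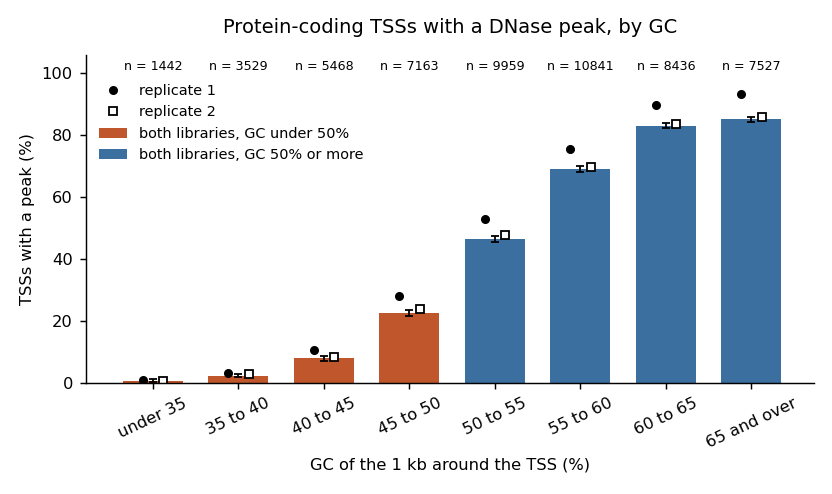
Percentage of protein-coding TSSs with a DNase peak midpoint within 500 bp (y axis), by GC content of the 1 kb around the TSS (x axis); bars give both libraries with Wilson 95% intervals, points give each library, and n is the number of TSSs. The share in both libraries went from 0.763% under 35% GC to 85.3% at 65% or more.

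GC-poor promoter peaks were weaker than GC-rich ones in both libraries. Signal is the strength the authors gave each peak, normalized for read depth on a scale that the labels and notes leave unstated. The median was 0.743 in replicate 1 and 0.798 in replicate 2, against 1.57 and 1.25 for GC-rich peaks. The ratio of medians was 0.472 and 0.637 (mean 0.555). The distributions overlapped widely. From the first to the third quartile, GC-poor peaks spanned 0.469 to 1.61 in replicate 1 and 0.506 to 1.50 in replicate 2, and GC-rich peaks 0.770 to 3.50 and 0.686 to 2.33. A GC-poor promoter peak stood at the median at percentile 55.9 and 56.1 of all peaks of its library, near the middle of the list. The strongest 10% of all peaks took in 11.6% and 12.1% of the GC-poor promoter peaks and 34.6% and 25.7% of the GC-rich ones. Widths differed less, with medians of 215.5 and 220 bp against 240 bp in each library.

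The strongest member by mean rank was at Flad1. It had a signal of 11.61 in replicate 1 and 9.24 in replicate 2. Bahcc1 had 11.82 and 6.94. Bpgm had 8.61 and 7.06, and Chd2 10.78 and 4.86. Next by rank came Cdc25c with 6.33 and 5.38, Hist1h4i with 6.42 and 4.67, Rps9 with 6.14 and 5.02, and Ndufs7 with 6.26 and 4.79. The sites from Flad1 to Cdc25c in this order stood above percentile 99 of all peaks on average over the libraries. Cdc25c encodes a phosphatase that drives entry into mitosis, and it was strong here in 14-day cortex. All 8 were stronger in replicate 1.

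Shared peaks were stronger in replicate 1 for both classes, and less so for the GC-poor class. Signals were normalized in each library separately by the authors, so the level of this ratio carries that scaling, and the comparison is between classes. Over 1332 replicate 1 members that overlapped a replicate 2 peak, the median log2 ratio of replicate 1 to replicate 2 signal was 0.26, a ratio of 1.20. Over 14761 GC-rich peaks it was 0.57, a ratio of 1.49. Of the GC-poor peaks 75.5% were stronger in replicate 1, against 93.1% of the GC-rich ones. Averaged over strata of mean signal, with both classes weighted by the GC-poor counts, the stratum medians were 0.25 and 0.46, a difference of -0.21 that rests on a single pair of libraries. The classes differ in GC content by definition, and how far this difference follows GC within each class was not tested.

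**Figure D2:**
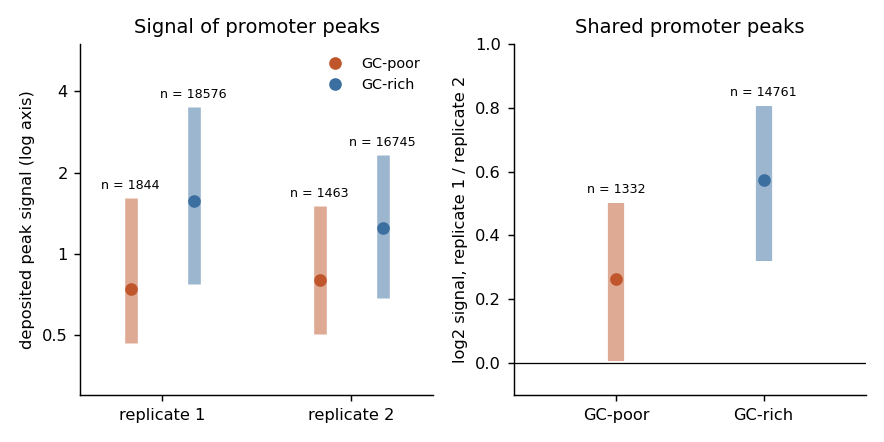
Left, deposited signal of promoter peaks (log axis) in each library; right, log2 ratio of replicate 1 to replicate 2 signal at peaks called in both. Points are medians and bars run from the first to the third quartile over n peaks; GC-poor medians were 0.743 and 0.798 against 1.57 and 1.25, and the log2 ratio was 0.26 against 0.57.

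Recurrence between libraries depended on signal, and GC-poor peaks recurred more often than GC-rich peaks of like signal. A peak was counted as shared when it had at least 1 bp in common with any peak called in the other. In replicate 1, 72.2% of GC-poor promoter peaks were shared (95% interval 70.2 to 74.2%), against 79.5% of GC-rich ones and 78.8% of all promoter peaks. In replicate 2 the shares were 90.2% (88.6 to 91.6%) and 89.7%, with 89.7% over all. Matching weighted the GC-rich peaks to the signal distribution of the GC-poor ones over 10 equal-sized strata of signal in each library. The matched GC-rich shares were 61.4% and 83.7%. The GC-poor share thus exceeded them by 10.8 and 6.53 percentage points (mean 8.67 ± 3.02, SD, n = 2). It was higher in 10 of 10 strata in replicate 1 and in 9 of 10 in replicate 2. The upper strata add little, since from the sixth up 100% of GC-poor and at least 95.7% of GC-rich peaks of replicate 1 were shared.

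The size of that excess depended on how peaks were counted, and its direction on what was called GC-poor. With only the strongest peak of each TSS it was 9.51 and 3.94 points. When peaks of the 2 libraries up to 200 bp apart counted as shared, it was 5.57 and 0.882 points. When the GC content of the peak itself, in place of the TSS window, set the classes, the difference was 7.19 points in replicate 1 and -9.87 in replicate 2. These settings were chosen after seeing the data. GC-rich TSSs more often held several peaks, since 69.7% and 70.1% of GC-rich peaks were the only peak at their TSS against 80.5% and 80.7% of GC-poor ones. At matched signal, GC-poor peaks were the strongest of their TSS more often by 14.9 and 11.7 points, and lay within 100 bp of it more often by 14.3 and 11.8 points.

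Footprints followed the same course. A footprint wholly inside the peak was found in 81.9% of GC-poor promoter peaks in replicate 1 and 78.3% in replicate 2. Over all promoter peaks the shares were 85.3% and 81.8%, and over GC-rich ones 85.6% and 82.1%. At matched signal GC-rich peaks held one in 73.5% and 71.7% of cases. The GC-poor excess was 8.40 and 6.59 points (mean 7.50 ± 1.28, SD, n = 2), with the gap again in the lower strata. With only the strongest peak of each TSS it was 7.03 and 4.79 points. With classes set by the peak's own GC it was 0.282 and -0.323 points.

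More GC-poor peaks held a footprint at matched signal, but not more footprints each. The mean number was 2.39 and 2.25 per GC-poor peak, which differed from the matched GC-rich mean by -0.158 and -0.156. GC-poor peaks were also narrower, with mean widths of 228.9 and 229.1 bp against a matched 262.1 and 248.1 bp. Per kb of peak the GC-poor density was 10.4 and 9.82, against a matched 9.70 and 9.69. Footprint positions recurred less in GC-poor peaks. Within shared peaks 45.8% of replicate 1 footprints and 55.6% of replicate 2 footprints overlapped one of the other library, against 53.9% and 66.1% at GC-rich peaks without matching.

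**Figure D3:**
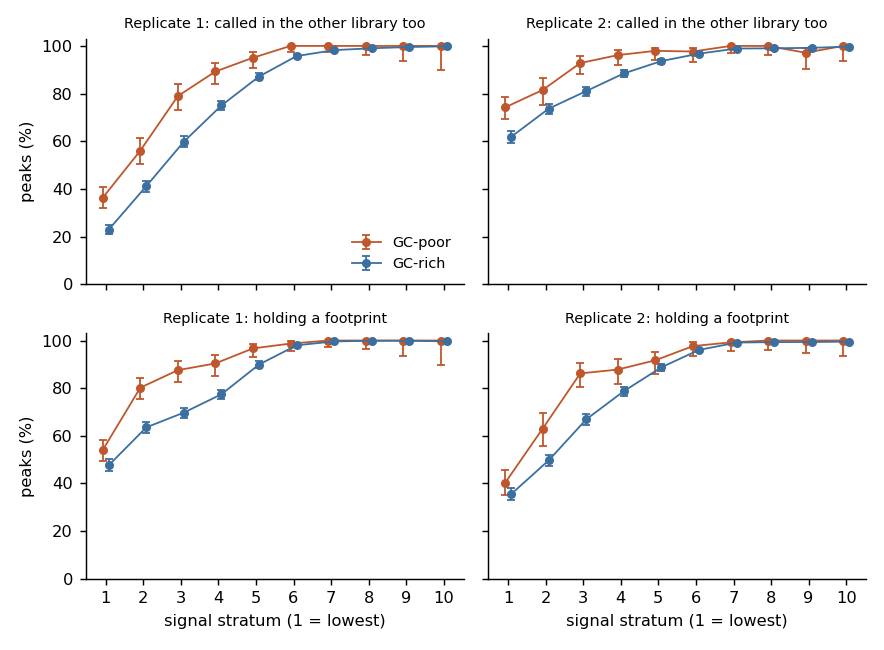
Percentage of promoter peaks called in both libraries (top) and holding a footprint (bottom) in 10 strata of equal size by signal, for replicate 1 (left) and replicate 2 (right); bars are Wilson 95% intervals. In the lowest stratum of replicate 1, 36.3% of GC-poor and 22.9% of GC-rich peaks were shared, and from the seventh stratum up both classes lay near 100%.

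The most footprints were found at Ndufs7, with 8 in replicate 1 and 11 in replicate 2. Slc9a9, which encodes a sodium-proton exchanger of endosomes, had 13 and 6 at a moderate signal of 0.891 and 0.798. AW146154 had 10 and 8, Bbs2 had 7 and 9 and Thg1l had 7 and 9. Bbs2 encodes a subunit of the BBSome, a complex of the primary cilium, and Thg1l a guanylyltransferase acting on histidine tRNA. The Slc9a9 peak was wide, at chr9:94669801-94670620 in replicate 1.

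The strongest peaks called in only one library were weaker than the leading shared members. In replicate 1 the 5 strongest were at Rapgef2 (signal 1.37), Mid1 (1.36), Dusp14 (1.31), Rbfox2 (1.23) and Cdc45 (1.15). Rapgef2 activates Rap GTPases, Mid1 is a ubiquitin ligase, Dusp14 a phosphatase, Rbfox2 a splicing factor and Cdc45 part of the replicative helicase. In replicate 2 they were at Eif5a (2.86), Mrpl48 (2.84), Pus10 (1.34), Cr1l (1.30) and Ogdh (1.29). Several were near misses of the overlap rule. The nearest peak of the other library lay 40 bp from those at Cdc45, Eif5a and Mrpl48, 80 bp from Pus10 and directly next to Cr1l. It lay 889 bp from Rapgef2, 1240 bp from Dusp14 and 723 bp from Rbfox2. Of 512 unshared members in replicate 1, 17.4% overlapped bases at which the authors' false discovery rate (FDR) of cutting was below 0.05 in replicate 2. Of 143 unshared members in replicate 2, 42.7% overlapped such bases in replicate 1. For unshared GC-rich peaks the shares were 23.4% and 80.8%, without matching on signal or width.

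GC-poor promoter peaks lay at 1454 genes in replicate 1 and 1174 in replicate 2. In all 10049 genes had a GC-poor TSS, and 1110 of them, 11%, had a GC-poor promoter peak in both libraries. That share is the background for the gene lists below. Of the 1110 genes, 645 (58.1%) had no GC-rich TSS, and 325 (29.3%) had a GC-rich promoter peak in both libraries as well. The TSS lay over 1 kb inside the gene record for 37.8% and 35.7% of GC-poor promoter peaks, against 16.0% and 14.1% of GC-rich ones. On the X chromosome lay 5.80% and 5.26% of the GC-poor peaks and 3.26% and 3.29% of the GC-rich ones. GC-poor TSSs themselves were more frequent there, at 5.10% against 2.97%.

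GC-poor promoter peaks were found at genes of every neuronal function listed, from sodium channels to neuropeptides. The 26 lists and families are described by counts alone, and their choice followed earlier results of these data. Of 17 listed ion channel genes with a GC-poor TSS, 5 (29.4%, against 11% over all genes) had a GC-poor promoter peak in both libraries. These were Scn2a, Scn1a and Scn3a, for sodium channels, Cacnb4, for a calcium channel subunit, and Kcnc2, for a potassium channel. At its stronger GC-poor TSS Scn2a had signals of 2.15 and 1.24, while Kcnc2 stood at 0.395 and 0.394. Of 18 glutamate and GABA receptor genes, 6 (33.3%) had one, among them the GABA-A receptor subunit genes Gabrb2 (1.42 and 1.35), Gabrg1 (1.31 and 1.11) and Gabrb1 (1.53 and 0.995).

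Synaptic vesicle and scaffold genes had 9 of 18 (50%). Snap25 reached 2.31 and 1.72, and Syt4, which encodes a synaptotagmin, 1.73 and 1.35. Both were stronger in replicate 1. Neuropeptide and receptor genes had 5 of 12 (41.7%). Scg2, which encodes a granin of dense-core vesicles, had 2.24 and 1.34, and Oprl1, the nociceptin receptor gene, 1.34 and 1.24. Npy1r, a neuropeptide Y receptor gene, had 1.24 and 0.918. Crhbp, Nts and Vip had a GC-poor TSS and no promoter peak in either library. Of 4 activity-regulated genes with a GC-poor TSS, 1 had a GC-poor promoter peak in both libraries, Bdnf, at 0.757 and 0.755. Of these 4, 0 were without any promoter peak.

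Counts for cell type markers rest on few genes each. The Wilson intervals were wide, at 51.0 to 100% for pan-neuronal and 23.1 to 88.2% for astrocyte markers. They were 7.15 to 59.1% for excitatory and 0 to 43.45% for inhibitory markers. The share over all genes was 11%. Because the lists were chosen with earlier results known and genes are not replicates, these intervals are no test against that share. For oligodendrocyte and precursor markers the interval was 1.99 to 43.5%. All 4 pan-neuronal markers with a GC-poor TSS had a GC-poor promoter peak in both libraries, Snap25, Stmn2 (1.53 and 1.39), Map2 (1.57 and 1.25) and Elavl4 (0.897 and 0.789). Of 8 excitatory neuron markers 2 did, Neurod6 (1.27 and 0.909) and Tbr1 (0.958 and 0.892), both for transcription factors. Of 5 inhibitory markers 0 did. Among 5 astrocyte markers 3 did, Slc1a3, Mlc1 and Gja1, all at low signals of 0.288 to 0.643 over both libraries. Of 9 oligodendrocyte and precursor markers 1 did, Enpp2 (1.15 and 0.892), while Mog and Mobp, genes of myelinating cells, had no promoter peak in either library. Counts were 0 of 7 for microglia and 0 of 6 for endothelial and mural cells, whose Wilson upper bounds were 35.4% and 39.0%. In tissue, fewer cells of a type and less accessible DNA per cell cannot be told apart.

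Genes of other tissues were nearly empty. None of 13 liver and gut genes and none of 7 muscle and heart genes with a GC-poor TSS had a GC-poor promoter peak in both libraries, with upper bounds of 22.8% and 35.4%. Large families bred by gene duplication supplied many GC-poor TSSs and few peaks. Of 1083 olfactory receptor genes 2 had a peak in both, Olfr434 (0.429 and 0.394) and Olfr1392 (0.368 and 0.360). Counts were 0 of 326 vomeronasal receptor genes, 0 of 63 cytochrome P450 genes, 0 of 37 beta-defensin genes and 0 of 25 prolactin family genes. Keratin genes gave 2 of 41, Krt77 and Krt222, and serpin genes 3 of 45, Serpinb9, Serpinb8 and Serpine2.

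Ribosomal, zinc finger and histone genes had larger shares. Cytosolic ribosomal protein genes had 7 of 15, led by Rps9, with Rpl7 at 2.87 and 2.74 and Rpl41 at 2.94 and 2.04. Zinc finger protein (Zfp) genes had 65 of 187, or 34.8% (28.3 to 41.8%). By mean rank Zfp879 led that family with 3.93 and 3.00, followed by Zfp952 (3.13 and 3.00) and Zfp65 (3.25 and 2.42). Histone genes with symbols starting in Hist, a group added after values were seen, had 15 of 17. Solute carrier genes had 20 of 117 (17.1%), with Slc23a2, a vitamin C transporter gene, first by mean rank at 1.78 and 1.16. Proteasome genes had 2 of 7, Psmb6 at 3.39 and 2.24, and Psmd11. The GC-poor promoter peaks of Psmd11 in the 2 libraries did not overlap each other. Its replicate 2 peak did overlap another replicate 1 peak, of signal 0.9175. How the authors placed reads from near-identical copies in duplicated families is unstated, so the counts for such families are uncertain.

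**Figure D4:**
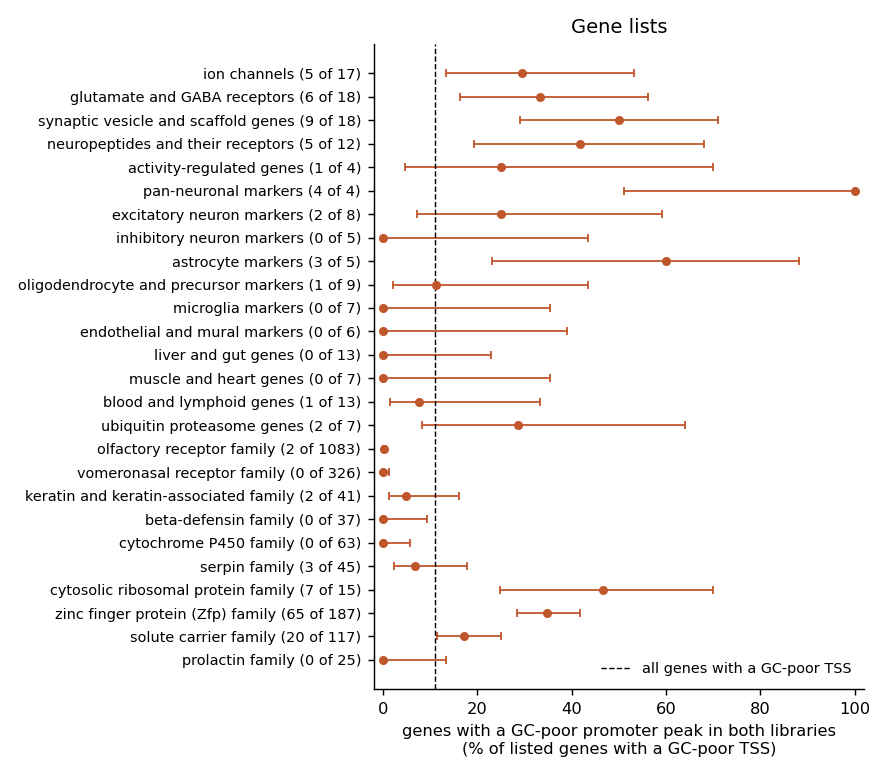
Share of genes with a GC-poor promoter peak in both libraries among the listed genes that have a GC-poor TSS, with Wilson 95% intervals and the counts in brackets; the dashed line is the share over all such genes, 11%. Synaptic, ribosomal and Zfp genes lie to the right of the line, and olfactory receptor, vomeronasal receptor, defensin and P450 families at or near 0.

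The members differed from GC-rich promoter peaks in base composition, which the rule fixes in part. The median GC content at the TSS was 47.2% and 47.3%, but the peaks themselves had a median of 52.7% and 52.5%, and 31.6% and 31.7% of the peaks had a GC content below 50%. The median ratio of observed to expected CpG was 0.405 and 0.429, against 0.744 and 0.757 at GC-rich peaks. A GC-rich protein-coding TSS lay within 1 kb of the TSS of 13.5% and 12.9% of the GC-poor peaks. Mostly repeat sequence were 27 and 24 of the GC-poor peaks, 1.46% and 1.64%, against 0.474% and 0.675% of the GC-rich ones.

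The lowest TSS GC among shared members was 33.7%, at Zfand6, with signals of 1.22 and 0.901. A second Scn2a start site, at 34.3%, had 1.16 and 0.995, and Omg, which encodes a myelin glycoprotein, had 0.944 and 0.841 at 34.3%. Gm10719 and Gm10718, predicted genes at the start of chromosome 9, had 1.92 and 1.11 and 1.88 and 0.926. Of the 1285 shared sites 8 lay below 3.1 Mb on chromosome 9, at 4 genes.

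Start sites with a peak held some consensus sequences more often than those without. Each consensus was searched on both strands in the 250 bases before and 50 bases after the TSS, a window that neighbouring TSSs can share. CRE, TGACGTCA, was found at 3.62% of GC-poor TSSs with a peak in both libraries (95% interval 2.91 to 4.50%). The share was 0.495% at GC-poor TSSs without a peak, 3.43% at GC-rich TSSs with a peak and 2.06% at all TSSs. ETS, CCGGAAG, stood at 11.6%, against 1.55%, 18.9% and 10.7% in the same order. SP/KLF, GGGCGG, stood at 23.2%, against 4.19%, 70.3% and 43.1%. The NRF1 consensus stood at 1.39%, against 0.0135%, 2.20% and 1.14%. A CTCF consensus, the site of the insulator protein, stood at 1.12%, against 0.0271%, 0.673% and 0.408%.

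For other consensus sequences the gap was smaller or opposite. CCAAT stood at 43.4% of GC-poor TSSs with a peak, 39.2% without one, 36.3% of GC-rich TSSs with a peak and 35.9% of all. ATGCAAAT, the OCT site, stood at 3.39%, 2.40%, 1.10% and 1.53%. GTTGCCA, part of the RFX site, stood at 6.55%, 4.17%, 3.63% and 3.88%. TAATTA, a homeodomain site, was less frequent with a peak, 7.76% against 11.4%, as was AGATAA, the GATA site, 13.3% against 19.5%. TSSs without a peak also had a lower GC content, and its part in these shares was not tested.

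TATAAA at the usual place of a TATA box was rare at GC-poor TSSs with a peak. Such a TSS had a peak midpoint within 500 bp but need not be the nearest TSS of that peak. TATAAA starting 40 to 20 bases before the TSS on its own strand was found at 20 of 2153 GC-poor TSSs with a peak in both libraries, 0.929% (0.602 to 1.43%). It was found at 3.15% of GC-poor TSSs without a peak, 0.638% of GC-rich TSSs with a peak and 1.53% of all. The strongest peaks with it were at Taf13 (5.71 and 3.38), Rnd3 (4.39 and 2.42) and Dnajc24 (3.01 and 2.85), followed by Rgs4 (3.60 and 2.51). Taf13 encodes a subunit of the TFIID complex, Rnd3 a small GTPase and Rgs4 a regulator of G-protein signalling. Tph2, the gene of neuronal tryptophan hydroxylase, was also among them at 1.21 and 0.892. Of the 20 TSSs, 13, at 12 genes, were the nearest one to an overlapping pair of peaks. The genes named here were picked from these 12 after their values were seen.

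Footprints held several of the same sequences at higher density than the rest of the peaks. With 5 bp added at both ends of a footprint, matches wholly inside them were counted against all others. Matches that overlapped a footprint only in part thus count as outside. The CTCF consensus was found 28 times inside and 2 times outside in replicate 1, and 22 and 4 times in replicate 2. CRE was found 40 times inside and 9 outside in replicate 1, and 36 and 12 in replicate 2, a density 22.8 and 16.1 times as high inside. NRF1 was found 17 times inside and 3 outside, then 13 and 3. For GGGCGG the density ratio was 4.76 and 3.53, for the YY1 consensus AANATGGCG 3.77 and 4.59, and for GTTGCCA 3.59 and 4.12. CCAAT was only 1.30 and 1.54 times as dense inside. GC-rich promoter peaks showed the same direction for these sequences, so it was not particular to the GC-poor class. Their ratios were 23.0 and 10.9 for CRE, 41.65 and 27.2 for CTCF and 31.8 and 39.7 for NRF1.

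Some sequences were less dense in footprints than beside them. The ratio was 0.678 and 0.694 for TATAAA, 0.646 and 0.375 for the AP-1 consensus TGANTCA and 0.396 and 0.544 for AGATAA. Footprint bases of GC-poor peaks had a GC content of 61.3% and 60.7%, against 51.9% in the rest of the same peaks in each library. They held 6.76 and 6.79 CpG per 100 bases against 3.21 and 3.46. Footprint bases of GC-rich peaks were likewise richer in GC, at 73.3% and 72.2% against 63.7% and 63.2%. The part of this base composition in the density ratios was not tested.

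**Figure D5:**
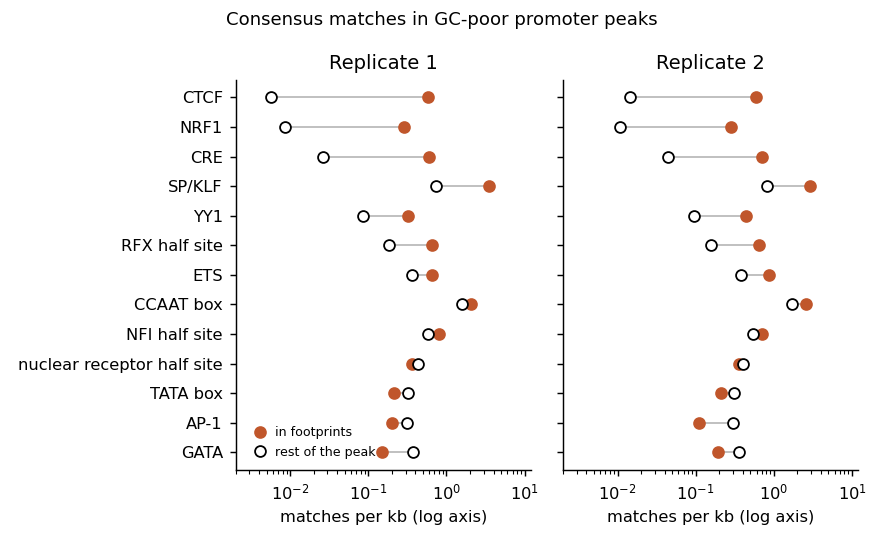
Matches per kb (log axis) of named consensus sequences in GC-poor promoter peaks, for replicate 1 (left) and replicate 2 (right). Filled points are matches wholly inside footprints with 5 bp added at both ends, and open points all other matches. Of the sequences plotted, CTCF, NRF1 and CRE lie farthest apart, and TATA box, AP-1 and GATA matches are denser outside footprints.

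Single sites show these sequences in place. Each window is 30 bases of GRCm38 on the strand of the gene, with the match in capitals, at the strongest shared member with the match in footprints of both libraries. The CRE is at Chd2, minus strand, chr7:73537880-73537909. The CTCF match is at Ccdc110, plus strand, chr8:45934942-45934971, with signals of 6.001 and 4.87. The NRF1 match is at Atg7, an autophagy gene, plus strand, chr6:114643041-114643070, with 3.66 and 2.60. The YY1 match is at Scfd1, plus strand, chr12:51377587-51377616, with 3.86 and 2.23. The RFX match is at Arid4a, plus strand, chr12:71048256-71048285, with 5.30 and 5.57. The match to a full nuclear factor I site is at Gstm7, a glutathione transferase gene, minus strand, chr3:107931853-107931882, with 4.99 and 3.85.
Chd2, CRE: gtcccgcccctTGACGTCAgacggagtggg
Ccdc110, CTCF: tcatagcgCGCCCTCTGGTGGccacagagg
Atg7, NRF1: ttgttgtagtGCGCATGCGCgccgcgcttc
Scfd1, YY1: ggtgggaagcAAGATGGCGgccacggccag
Arid4a, RFX: ctgccgacagaGTTGCCAtagtaacatgct
Gstm7, nuclear factor I: tttcgctcTTGGCACTCAGCCAAgccacca
The matches at Ccdc110 and Scfd1 lie downstream of the TSS, and those at Chd2, Atg7, Arid4a and Gstm7 lie upstream. Arid4a was the member of this set with the higher signal in replicate 2.

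The tissue label was checked against markers at GC-rich promoters, where 67.85% of all genes with a GC-rich TSS had a peak in both libraries. Such a peak was found at 10 of 12 pan-neuronal, 10 of 18 excitatory and 8 of 18 inhibitory neuron markers. The count was 7 of 14 for astrocytes, 6 of 17 for oligodendrocytes and precursors, 2 of 16 for microglia and 3 of 16 for endothelial and mural cells. It was 1 of 20 for liver and gut and 1 of 20 for muscle and heart. These counts are over all listed genes, whether or not they have a GC-rich TSS. The steps between deposited signal values were 0.00670 in replicate 1 and 0.00858 in replicate 2. A GC-poor promoter peak held 111 and 93 such steps at the median. Total reads per library were not used here.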

How the data were processed

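DNase-seq peaks, footprints and FDR tracks of 2 libraries of 1 group were used as the authors deposited them. Per the deposited notes, each library's calls come from its own alignments to mm10. For the aligner, the callers and their versions and thresholds the record is: not given in the sources used here. Each deposited peak signal was scaled to read depth by the authors. The deposited FDR values are on a p-value scale, each below 0.05, and cover stretches of bases. How reads of the CAST/EiJ alleles were aligned to mm10 is unstated, and the sequences printed are those of the reference. The deposited footprints were used for position only.

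The longer of 2 peak lists per library was used. TSSs were the distinct 5′ ends of protein-coding transcripts in GENCODE M21, and each peak took the nearest TSS to its midpoint. GC content came from GRCm38, whose chromosome ends 0 of the intervals passed. GC-rich values were weighted to the GC-poor signal distribution over 10 strata. Footprints were counted when wholly inside a peak. Tables were computed with numpy 2.4.6 and pandas 2.3.3, intervals with scipy 1.17.1, and sequences were read with pysam 0.24.0. The functions were tested on simulated data, where overlaps, footprint counts and nearest distances equalled a direct search for all 3000 intervals.

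The members, 26 gene lists and 24 consensus sequences were chosen with earlier results of these data known. Named genes were the 8 strongest shared sites, the 5 strongest of each library alone, the 5 with most footprints, the 5 lowest in TSS GC, the 3 on each side of the threshold, up to 3 strongest and up to 3 without a peak per list, and the strongest site per consensus. A subset is printed. Lists whose count was 5 or fewer are named in full outside that rule, after their values were seen. The histone and tRNA counts, the base composition of footprints, the TATAAA genes and the neuronal sequences were also chosen after the values were seen. Alternatives were the shorter peak list, other GC thresholds, windows, TSS sets, overlaps and strata, no matching, and each library alone. With 2 libraries, precision is limited by their number. Some results on items withheld for evaluation are not reported here.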

Additional observations from a re-analysis of the deposited data

How the results depend on the processing

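Values here are means over both libraries unless stated, and a value counts as moved when it left the spread between libraries. The limit was instead the spread over strata for the replicate ratio and the Wilson interval for TATAAA. For the number of peaks it was a set factor of the main value, wider than the spread between libraries. No paired analysis was possible because there is 1 group. Without matching on signal the differences reversed, to -3.35 points for sharing and -3.77 for footprints. Classing by the peak's own GC, chosen after seeing the data, also reversed them, to -1.34 and -0.0208 points, and gave 1036 peaks, a share of 5.37%, a signal ratio of 0.411 and a replicate difference of -0.31. The shorter list gave 1098 peaks, a share of 7.01%, 8.89% of GC-poor TSSs in both libraries and a footprint difference of 10.3 points. A GC threshold of 45% gave 431.5 peaks, 2.23%, 5.05% of TSSs, and differences of 13.7 and 9.95 points. A threshold of 55% gave 4635 peaks, 24.0%, 24.6% of TSSs, a signal ratio of 0.786 and differences of 4.18 and 4.75 points. GC over 250 bp gave 1188 peaks, a share of 6.13% and 9.45% of TSSs. Midpoints within 250 bp gave 1306 peaks, 10.2% of TSSs and a footprint difference of 4.78 points. Gene record starts gave 1099 peaks, 7.44% and 6.17 points for footprints. A 50% reciprocal overlap gave 14.1 points for sharing. TATAAA at 50 to 10 bases stood at 1.53%. Of the settings added after seeing the data, the strongest peak per TSS gave 5.91 points for footprints, allowing 200 bp between the libraries' peaks gave 3.23 points for sharing, and leaving out TSSs near a GC-rich one gave a share of 7.49% and 9.25 points for footprints. With each library alone the count was 1463 to 1844, the share 8.04 to 9.03%, occupancy of GC-poor TSSs 13.0 to 15.3%, the signal ratio 0.472 to 0.637, the sharing difference 6.53 to 10.8 points, the footprint difference 6.59 to 8.40 points and TATAAA 0.873 to 1.11%. The log2 replicate difference kept its sign in all 11 alternatives run, from -0.31 to -0.15. Total reads were not used here, so no limit from depth is given.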

Other observations

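Long noncoding RNA start sites were less common at GC-poor than at GC-rich promoter peaks. The midpoint lay within 500 bp of one in 4.83% of GC-poor peaks of replicate 1 (95% interval 3.94 to 5.90%) and 5.61% of replicate 2 (4.54 to 6.90%), against 7.88% and 8.56% of GC-rich peaks at matched signal. Tceal3, a gene of the X chromosome, was the other member whose peak covered a tRNA gene, n-TAtgc1, with signals of 2.23 and 1.60. Predicted genes named Gm had GC-poor TSSs at 1069 genes and a GC-poor promoter peak in both libraries at 19 (1.78%). Dusp19 had a higher signal in replicate 2 than in replicate 1, 4.30 against 3.46.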
